A study of Mus musculus with 4 samples.

Results

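The genes described here are 10 genes of TGF-beta and BMP signalling and of mammary bud and mesenchyme development. They are the ligands Tgfb1, Tgfb2 and Tgfb3, their type II receptor Tgfbr2, the ligand Bmp4, and the homeobox genes Msx1 and Msx2. The others are the peptide gene Pthlh, its receptor gene Pth1r, and the T-box gene Tbx3. Members were all probe sets annotated with exactly 1 gene symbol that is a name on this list, which gave 15 probe sets of 9 genes among 45037 probe sets tested (17097 named genes). Pthlh was not analysed here, because the platform annotation used here pairs no probe set with it. The arrays came from whole inguinal mammary gland at postnatal day 10, 2 from Mt2-mmp(-/-) mice, which lack this membrane-anchored matrix metalloproteinase (gene symbol Mmp15) in every tissue, and 2 from Mt2-mmp(+/+) littermates. All mice were congenic on C57Bl/6J. The labels do not give the number of mice behind each array, their sex and the deleted part of the gene. They call the 2 arrays of a genotype biological replicates and do not say more about their source, so p-values measure the spread between these arrays. The targeted gene was not analysed here, which means that the genotypes rest on the labels.

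As background, TGF-beta ligands are secreted in a latent form, are released in the matrix, and signal through the type II receptor to the type I receptor Tgfbr1 and on to Smad2 and Smad3. In the mammary gland they restrain ductal growth and branching. In the embryonic bud, Tbx3 is needed for the placode to form, and the epithelium then secretes the Pthlh product, which acts on Pth1r in the underlying mesenchyme. There it makes the cells responsive to Bmp4, and Msx2, a BMP target, takes part in keeping hair follicles from forming in the overlying skin. Msx2 is also expressed in the hair follicle itself.

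Values are log2 expression per probe set as deposited, normalised by the authors with RMA, and differences are knockout minus wild type. Where a pair of values is given for a genotype, replicate 1 stands before replicate 2. Across all probe sets the 4 arrays correlated between 0.995 and 0.997. Defining markers of the labelled tissue were measured on all arrays: the mean log2 level of 6 luminal markers was 8.40 and 8.32 in the knockouts, against 8.63 and 8.55 in the wild types, and that of 4 white adipocyte markers was 12.97 to 13.07 in knockouts and 13.05 to 13.09 in wild types. Of the marker lists, that of brown adipocytes had the highest median log2 fold change, 0.76. All 5 of its genes lay above 0, 4 of them at an unadjusted p under 0.05, while 0 passed after adjustment by limma. Its mean log2 level was 10.31 and 9.90 in the knockouts, against 9.40 and 9.39 in the wild types. Ucp1, the uncoupling protein on this list, named here after its values were seen, had a log2 fold change of 1.64 (limma adjusted p = 0.653). The part of this signal in the member values was not tested. The arrays stood apart in the mean of a list of 20 hair follicle and epidermis markers. Its mean log2 level was 6.78 in knockout 1 and 4.57 in knockout 2, against 4.59 in wild type 1 and 6.62 in wild type 2. Thus 1 array of each genotype carried a high hair signal. Trichohyalin (Tchh), a structural protein of the inner root sheath, had log2 values of 10.74 and 3.49 in the knockouts, against 4.03 and 10.37 in the wild types. It had the widest range of the list, and part of the list did not follow this split. Krt10 had a range of 0.058 over the arrays. Krtdap (log2 fold change 0.32) was higher in both knockouts and Lgr5 (-0.21) lower in both. Krt1, Flg, Foxn1 and Shh did not follow the split either. Knockout 2 also stood apart in the mean log2 level of 6 skeletal muscle markers. That mean was 5.27 and 6.30 in the knockouts, against 5.55 and 5.32 in the wild types. Mb of this list was not highest in knockout 2. The part of the muscle signal in the member values was not tested. In whole tissue, fewer cells of a type and less RNA per cell cannot be told apart.

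By limma 0 of 15 member probe sets passed an adjusted p of 0.05, where 2 of 45037 probe sets did (0.00444%). At an unadjusted p under 0.05 the count was 1 of 15, a probe set of Tbx3, against 6.65% of all probe sets. The values of the genotypes did not overlap in 4 of 15 member probe sets, 1 higher and 3 lower in knockouts, against 36.4% of all probe sets (17.8% higher and 18.6% lower). All 3 lower ones belong to Tbx3 and the higher one to Tgfb1. The median log2 fold change of the member probe sets was -0.017, with a range of -0.28 to 0.21, and that of all probe sets was -0.0012. With 2 arrays per genotype the smallest p of an exact two-sided permutation test is 0.333, and all p-values given are those of limma.

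**Figure D1:**
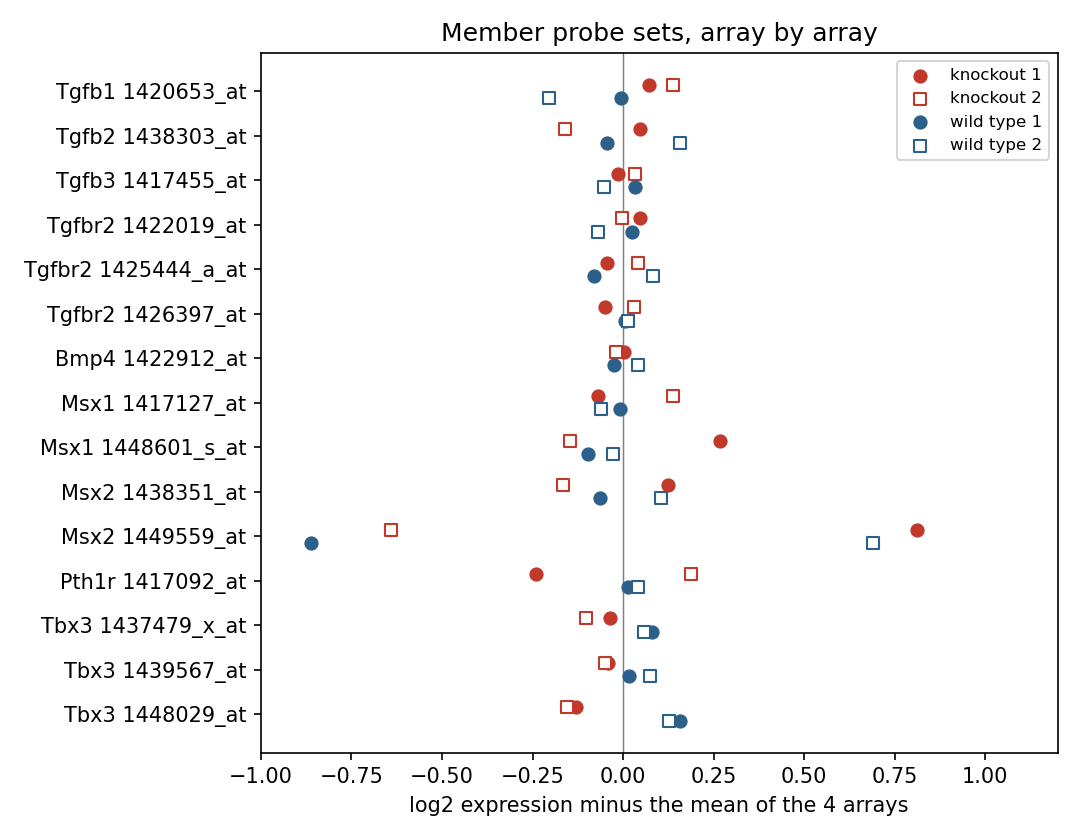
Log2 expression of each of the 15 member probe sets minus its mean over the 4 arrays (x axis), with knockouts drawn above wild types in each row and filled and open symbols for replicates 1 and 2. The Tbx3 rows keep knockouts left of wild types, and Msx2 1449559 separates knockout 1 and wild type 2 from the other arrays.

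Among the TGF-beta ligands, Tgfb1, the form made by many immune and stromal cells, was the member gene with the highest fold change. Its probe set 1420653_PM_at had log2 values of 5.99 and 6.05 in the knockouts, against 5.91 and 5.71 in the wild types. Both knockouts lay above both wild types, by a margin smaller than the gap of 0.20 between the wild types. The log2 fold change was 0.21 (SE 0.091, 95% interval -0.021 to 0.44, limma adjusted p = 0.766). The difference was 0.11 without wild type 2 and 0.31 without wild type 1. Markers of cells that can make Tgfb1 lay on both sides of 0, and 0 passed after adjustment by limma. Of the endothelial markers 4 of 5 lay above 0 (median 0.15, Tie1 0.50), with a summed linear level of 3620 to 4279 in knockouts and 3493 to 3757 in wild types. Fibroblast markers lay above 0 in 5 of 6 (median 0.059), with 30256 to 30753 in knockouts and 27867 to 29873 in wild types. Lymphocyte markers lay above 0 in 3 of 5 (median 0.0062), with 239 to 253 in knockouts and 218 to 228 in wild types. Of the B cell genes, Ms4a1 (0.76) and Cd79b (0.50) had an unadjusted p under 0.05. Cd79a had 0.0062, and its genotypes overlapped. The 2 probe sets of Ms4a1 ran from 0.21 to 0.76. The T cell genes of the same list, Cd3e (-0.10) and Cd3d (-0.099), lay below 0. These B and T cell genes and Tie1 were named after their values were seen. Macrophage markers lay below 0 in 5 of 5 (median -0.069), with 2015 to 2125 in knockouts and 2168 to 2280 in wild types. The part of these cells in the Tgfb1 values was not tested.

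Tgfb2, a ligand made by epithelium and mesenchyme in many developing organs, had log2 values of 4.96 and 4.75 in the knockouts, against 4.87 and 5.07 in the wild types. The genotypes overlapped. The highest values were those of knockout 1 and wild type 2, the arrays with the high hair follicle signal. The part of that signal in Tgfb2 was not tested. The log2 fold change was -0.11 (SE 0.109, limma adjusted p = 0.890). Knockout 1 lay above wild type 1 by less than this SE, so the ranking of these arrays is uncertain. Tgfb3, known for its induction at weaning in the mouse gland, was among the steadiest members. Its log2 values were 7.78 and 7.82 in the knockouts, against 7.82 and 7.74 in the wild types. All 4 values lay within 0.085, and the log2 fold change was 0.020 with a 95% interval of -0.16 to 0.20 (limma adjusted p = 0.991).

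The upstream windows of Tgfb1 and Tgfb2 are shown because these ligands lay on opposite sides of 0. Sequences are RefSeq's, build GRCm38.p6, 250 bases before the annotated start, 5′ to 3′ on the gene's strand. Of the 10 genes 8 had an entry. Capitals mark the Smad box CAGAC on either strand. The other motifs searched on both strands were GGCGCC, a GC-rich BMP-responsive motif, and TAATT, a longer form of the homeodomain core TAAT.
Tgfb1: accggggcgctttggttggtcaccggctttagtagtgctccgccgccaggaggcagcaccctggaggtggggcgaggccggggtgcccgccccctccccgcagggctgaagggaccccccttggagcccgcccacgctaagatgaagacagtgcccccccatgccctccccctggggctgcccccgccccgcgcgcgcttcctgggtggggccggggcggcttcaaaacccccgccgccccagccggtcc
Tgfb2: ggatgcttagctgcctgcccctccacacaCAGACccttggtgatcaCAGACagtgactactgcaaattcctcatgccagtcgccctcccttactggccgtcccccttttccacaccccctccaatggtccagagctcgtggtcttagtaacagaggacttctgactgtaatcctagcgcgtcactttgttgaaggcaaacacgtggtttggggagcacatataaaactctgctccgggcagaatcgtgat
The first window is chr7:25686752-25687001 on the plus strand and the second chr1:186705990-186706239 on the minus strand. The Tgfb2 window held 2 Smad boxes, which begin 221 and 204 bases before the start, and the Tgfb1 window held none of the 3 motifs. A Smad box stood in 42.2% of all 32851 such windows, GGCGCC in 9.59% and TAATT in 25%. A match of letters is a description and does not show a binding site.

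The receptor subunit that binds these ligands, Tgfbr2, was measured by 3 probe sets, and none separated the genotypes. The brightest, 1426397_PM_at, had log2 values of 10.63 and 10.72 in the knockouts, against 10.69 in wild type 1 and 10.70 in wild type 2. The wild types lay between the knockouts. The log2 fold change was -0.020 with a 95% interval of -0.20 to 0.15 (limma adjusted p = 0.991). Probe set 1425444_PM_a_at, with log2 values of 4.92 to 5.08, had -0.0026. Probe set 1422019_PM_at had 0.044, with log2 values of 3.78 to 3.89 that lay within the range of the nonspecific control probe sets (95th percentile 4.49 to 4.56 on the 4 arrays). Of the 15 member probe sets 3 lay below that percentile on all arrays, this one and the dimmest of Msx2 and of Tbx3.

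Bmp4, the mesenchymal ligand of the BMP arm, varied least of all members. Its probe set 1422912_PM_at had log2 values of 6.71 and 6.68 in the knockouts, against 6.68 and 6.75 in the wild types. The genotypes overlapped and the range over the arrays was 0.067, while 6.58% of all probe sets had a smaller range. Its log2 fold change was -0.017 with a 95% interval of -0.19 to 0.16 (limma adjusted p = 0.994). Pth1r, the receptor through which the Pthlh product acts on the mesenchyme, had log2 values of 7.77 and 8.20 in the knockouts, against 8.03 and 8.05 in the wild types. The knockouts lay on either side of the wild types, and the gap between the knockouts was 0.43 against 0.027 between the wild types. The log2 fold change was -0.053 with a 95% interval of -0.42 to 0.31 (limma adjusted p = 0.984). For Pth1r the fold change was 0.16 without knockout 1 and -0.27 without knockout 2, so its sign changed with the knockout array that was kept.

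**Figure D2:**
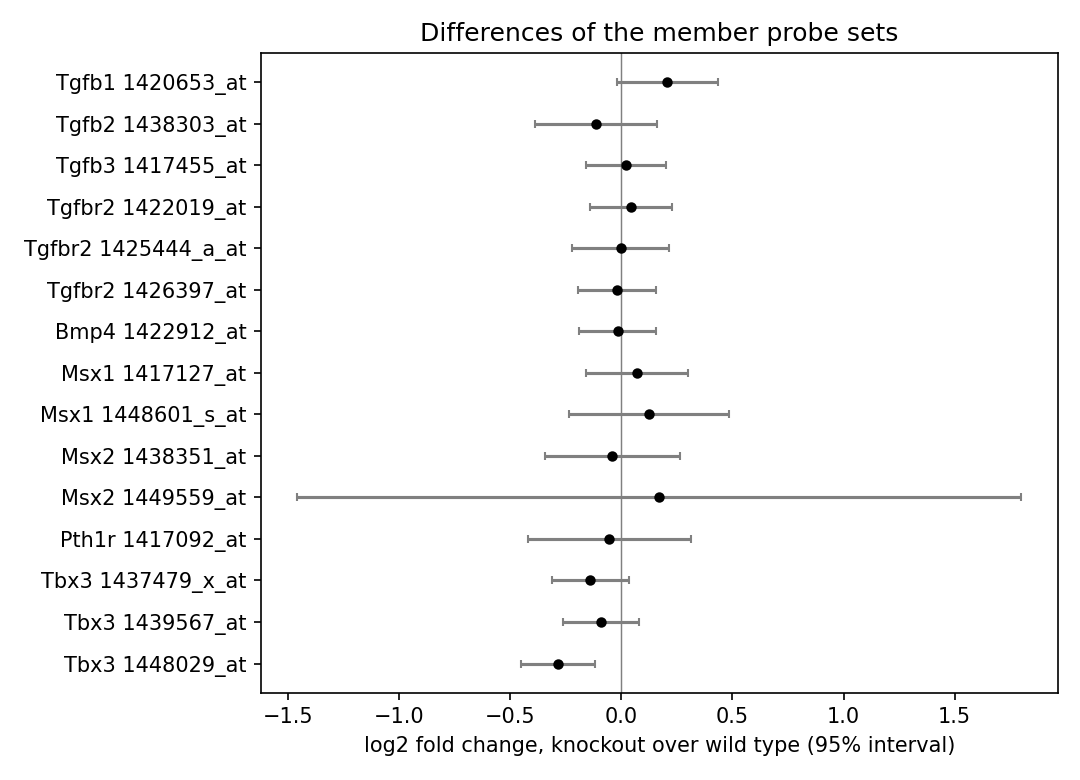
Log2 fold change of each member probe set, knockout over wild type (points), with the 95% interval of the limma fit (bars). The interval of Tbx3 1448029 lies below 0 before adjustment, and that of Msx2 1449559 runs from -1.46 to 1.80.

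Msx1 and Msx2 encode closely related homeobox repressors that respond to BMP. The brighter probe set of Msx1, 1448601_PM_s_at, had log2 values of 6.34 and 5.93 in the knockouts, against 5.98 and 6.04 in the wild types. Knockout 1 stood above the other 3 arrays, and the log2 fold change was 0.12 (SE 0.143, limma adjusted p = 0.919). Without knockout 1 the fold change was -0.084. The other probe set of Msx1, 1417127_PM_at, had log2 values of 4.83 and 5.03 in the knockouts, against 4.89 and 4.83 in the wild types. Here knockout 2 was the highest array, so the probe sets of Msx1 did not rank the knockouts alike. Its log2 fold change was 0.070 (limma adjusted p = 0.932).

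Msx2 differed far more between arrays of the same genotype than between genotypes. Probe set 1449559_PM_at had log2 values of 6.93 and 5.48 in the knockouts, against 5.25 and 6.81 in the wild types. Knockout 1 and wild type 2 were high and the other arrays low, and 99.8% of all probe sets had a smaller range over the arrays than the 1.67 of Msx2. The gap within knockouts was 1.45 and that within wild types 1.55, against a log2 fold change of 0.17 (SE 0.649, 95% interval -1.46 to 1.80, limma adjusted p = 0.993). Leaving out an array moved the fold change to -0.56 without knockout 1, 0.90 without knockout 2, -0.61 without wild type 1 and 0.95 without wild type 2. The difference was 0.12 between knockout 1 and wild type 2 and 0.22 between knockout 2 and wild type 1. The second probe set of Msx2, 1438351_PM_at, lay near the nonspecific controls at 3.59 and 3.30 in the knockouts, against 3.40 and 3.57 in the wild types, and its fold change was -0.040.

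The order of Msx2 over the arrays was that of the summed level of the hair follicle and epidermis list. By the mean log2 level of that list the low arrays ranked the other way, with 4.57 in knockout 2 and 4.59 in wild type 1. The summed linear level of the 20 measured genes, out of 23 on the list, was 6264 in knockout 1 and 793 in knockout 2, against 734 in wild type 1 and 5415 in wild type 2. Of the 20, 5 lay within 1 log2 unit of the nonspecific control median on every array, among them Flg and Lor of the epidermal surface layer. Msx2 was the member gene with the widest range. Among 17088 other genes, the 3 whose log2 values, each centred on its own mean over the 4 arrays, lay nearest to those of Msx2 by Euclidean distance were Hoxc13 (distance 0.026), Mlana (0.13) and Padi3 (0.16). Hoxc13, a homeobox gene that is on the hair follicle list, had log2 values of 6.78 and 5.31 in the knockouts, against 5.10 and 6.63 in the wild types. Mlana encodes a melanosome protein and Padi3 an enzyme that modifies arginine in hair proteins. The part of the hair follicle signal in the values of Msx2 was not tested.

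**Figure D3:**
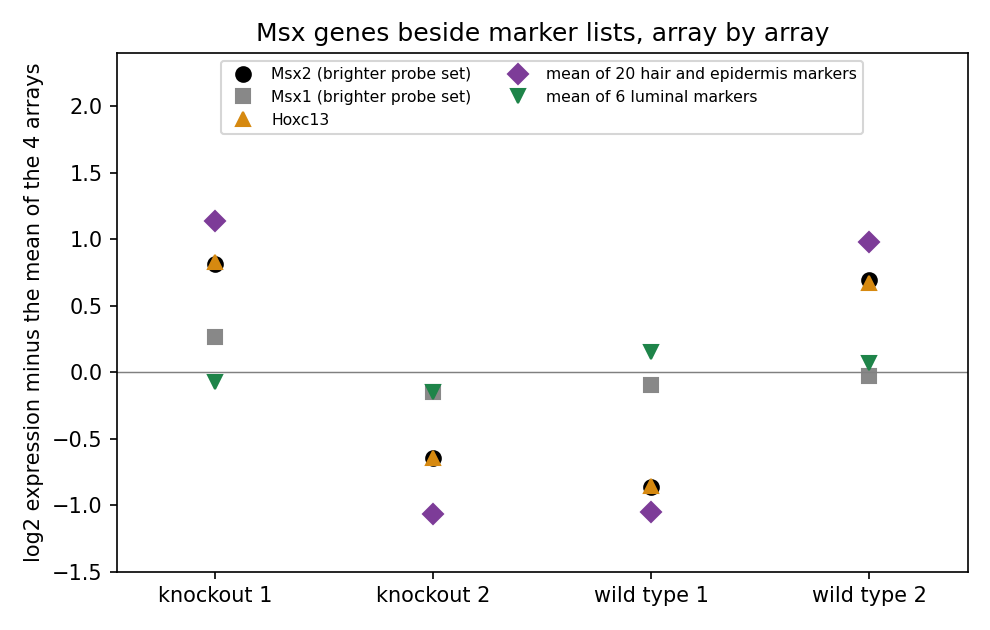
Log2 expression minus the mean of the 4 arrays (y axis) on each array (x axis) for the brighter probe sets of Msx2 and Msx1, for Hoxc13, and for the mean log2 level of 20 hair follicle and epidermis markers and of 6 luminal markers. Msx2 and Hoxc13 are high in knockout 1 and wild type 2, as is the hair list, and Msx1 lies above its mean in knockout 1 alone.

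The windows upstream of both Msx genes are printed for comparison, because these relatives did not share a pattern over the arrays. Capitals mark TAATT, the longer form of the homeodomain core, on either strand. The sources and the other motifs are those given for the ligands.
Msx2: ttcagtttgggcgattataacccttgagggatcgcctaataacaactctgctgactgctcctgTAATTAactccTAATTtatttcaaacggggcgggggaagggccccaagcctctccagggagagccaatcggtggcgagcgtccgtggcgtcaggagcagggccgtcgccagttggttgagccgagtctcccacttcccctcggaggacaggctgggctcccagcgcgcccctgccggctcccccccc
Msx1: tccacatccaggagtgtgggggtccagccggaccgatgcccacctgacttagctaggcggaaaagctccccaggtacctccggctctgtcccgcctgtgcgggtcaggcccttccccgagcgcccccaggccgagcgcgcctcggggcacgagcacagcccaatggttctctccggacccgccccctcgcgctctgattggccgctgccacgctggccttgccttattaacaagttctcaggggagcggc
The Msx2 window is chr13:53472781-53473030 and the Msx1 window chr5:37824586-37824835, both on the minus strand. In Msx2 TAATT stood in 2 stretches, at 187 and 176 bases before the start. In the first of these TAATT and its reverse complement overlap. The Msx1 window held none of the 3 motifs as searched, and Msx2 held no CAGAC or GGCGCC. The shorter core TAAT was not searched, and its reverse complement ATTA is seen in the Msx1 window. Guanine and cytosine made up 61.6% of the Msx2 window and 68.0% of the Msx1 window.

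Tbx3, the T-box repressor on which the mammary placode depends, was lower in knockouts on all 3 of its probe sets, without passing the threshold. Probe set 1448029_PM_at had log2 values of 7.42 and 7.39 in the knockouts, against 7.71 and 7.68 in the wild types. The genotypes did not overlap, and the gap within each genotype was 0.027 and 0.028. Its mean was 7.41 ± 0.019 in knockouts and 7.69 ± 0.020 in wild types (SD, n = 2 arrays each). The log2 fold change was -0.28 (SE 0.066, 95% interval -0.45 to -0.12), or 1.22-fold lower. It was the member probe set of smallest p, with an unadjusted p of 0.0065 and an adjusted p of 0.704 by limma. A larger absolute fold change was seen in 4.09% of all probe sets.

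The brightest Tbx3 probe set, 1437479_PM_x_at, had log2 values of 7.95 and 7.89 in the knockouts, against 8.07 and 8.05 in the wild types. The genotypes again did not overlap, and the fold change was -0.14 (SE 0.069, limma adjusted p = 0.782). The x in its name marks a probe set whose probes may also match other transcripts. The dimmest, 1439567_PM_at, had 3.44 and 3.43 in the knockouts, against 3.50 and 3.55 in the wild types, a fold change of -0.091 near the nonspecific controls. The 3 probe sets were read on the same arrays and are not independent. Tbx3 stayed below 0 on each probe set with any 1 array left out, with -0.30 to -0.27 for 1448029_PM_at. Luminal epithelial markers lay on the same side: all 6 measured, Krt8, Krt18, Krt19, Epcam, Cldn3 and Elf5, had fold changes below 0 (median -0.22), 0 passed the adjusted threshold, and their summed linear level was 2397 to 2522 in knockouts and 2776 to 3032 in wild types. All 5 measured basal markers were below 0 as well (median -0.19). Their summed linear level was 5272 to 5289 in knockouts and 5416 to 5680 in wild types. The genotypes did not overlap in 2 of 5, Krt14 (-0.27) and Trp63 (-0.85), against 37.6% of all genes. They overlapped in Krt5 (-0.19), Myh11 (-0.061) and Acta2 (-0.042), the brightest of the 5. The probe sets of Trp63 did not share a sign (-0.85 to 0.039). Within each genotype, Krt5, Krt14 and Trp63 were higher on the array with the high hair follicle signal. The gaps within knockouts and within wild types were 0.46 and 0.49 for Krt5, 0.037 and 0.12 for Krt14, and 1.01 and 0.68 for Trp63. Acta2 and Myh11 did not show this in both genotypes. The part of the hair follicle signal in the basal markers was not tested. The part of a lower epithelial signal in the Tbx3 values was not tested.

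Other genes of these pathways were described from 3 lists, each gene by its brightest probe set. Over all 17097 genes 1 passed (0.00585%), 7.36% had an unadjusted p under 0.05, and in 37.6% the genotypes did not overlap. The TGF-beta list of latency proteins, receptors, Smad proteins, their regulators and targets had 23 measured genes, 9 above and 14 below 0, with a median of -0.044 against -0.0022 over all genes. By limma 0 passed, 1 had an unadjusted p under 0.05, and in 10 of 23 the genotypes did not overlap. That gene was Ltbp4, which tethers latent TGF-beta to elastic fibres, with log2 values of 8.18 and 8.41 in the knockouts, against 7.93 and 8.07 in the wild types (log2 fold change 0.30, SE 0.104, adjusted p = 0.733). Next on the higher side were the co-receptor Eng (0.12), the matrix target Tgfbi (0.081) and the latency protein Ltbp3 (0.082), and the genotypes overlapped in Eng and Ltbp3. On the lower side were the matricellular target Ccn2 (-0.22), the Smad co-repressors Tgif1 (-0.15) and Ski (-0.13), and Smad2 (-0.12), a signal transducer. The probe sets of Ski, Eng and Ltbp3 did not share a sign, with ranges of -0.13 to 0.059 for Ski, -0.062 to 0.12 for Eng and -0.11 to 0.082 for Ltbp3.

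The type I receptor Tgfbr1, chosen after its values were seen as the partner of Tgfbr2, had log2 values of 9.00 and 8.91 in the knockouts, against 9.16 and 9.02 in the wild types. The genotypes did not overlap, and the fold change was -0.14 (SE 0.083, limma adjusted p = 0.811).

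The BMP list of ligands, receptors, Smad proteins, antagonists and targets had 28 measured genes, 13 above and 15 below 0, with a median of -0.013. By limma 0 passed and 2 had an unadjusted p under 0.05, 1 in each direction, and in 8 of 28 the genotypes did not overlap. Bmp6, a ligand related to Bmp7, had log2 values of 7.29 and 7.34 in the knockouts, against 6.97 and 7.05 in the wild types (log2 fold change 0.30, SE 0.071, adjusted p = 0.704). Bmp2, the ligand most like Bmp4, had 6.70 and 6.63 in the knockouts, against 6.86 and 6.94 in the wild types (log2 fold change -0.24, SE 0.073, adjusted p = 0.721). The inhibitory Smad6 had 0.18, Bmp7 0.17 and Id2 0.17 on the higher side, and the genotypes overlapped in Id2. On the lower side Id4 had -0.20, the BMP-binding protein Bmper -0.16 and Id1 -0.13. The Id genes are direct BMP targets that block helix-loop-helix factors, and Id3, named after its values were seen, had -0.010. Dlx3, a homeobox gene named after its values were seen, was also high in knockout 1 and wild type 2, with log2 values of 6.15 and 5.47 in the knockouts, against 5.38 and 6.38 in the wild types.

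The list of mammary mesenchyme and bud genes had 21 measured genes, 7 above and 14 below 0, with a median of -0.040. By limma 0 passed and 2 had an unadjusted p under 0.05, 1 in each direction, and in 9 of 21 the genotypes did not overlap. Tbx2, a T-box repressor related to Tbx3, had log2 values of 6.07 and 6.31 in the knockouts, against 5.97 and 5.70 in the wild types (log2 fold change 0.36, SE 0.128, adjusted p = 0.742), on the other side of 0 from Tbx3. Fgfr2, the epithelial receptor for stromal Fgf10, had 7.31 and 7.22 in the knockouts, against 7.56 and 7.69 in the wild types (log2 fold change -0.36, SE 0.080, adjusted p = 0.697), and its 3 probe sets ran from -0.36 to -0.072. Hoxc8 (-0.26), a homeobox gene of the thoracic mammary line, and Fgfr1 (-0.15) followed on the lower side. Wnt5a (0.17), a Wnt that acts downstream of TGF-beta in the gland and the calcium receptor Casr (0.075) followed on the higher side, and the genotypes overlapped in Wnt5a. Wnt10a, an early placode Wnt on the lower side, and the neuregulin Nrg3 on the higher side were named by the same rule, but both lay below the 95th percentile of the nonspecific controls on all arrays, with log2 values of 3.79 to 4.08 for Wnt10a and 3.44 to 3.55 for Nrg3. The 2 probe sets of Nrg3 did not share a sign (-0.031 to 0.034).

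**Figure D4:**
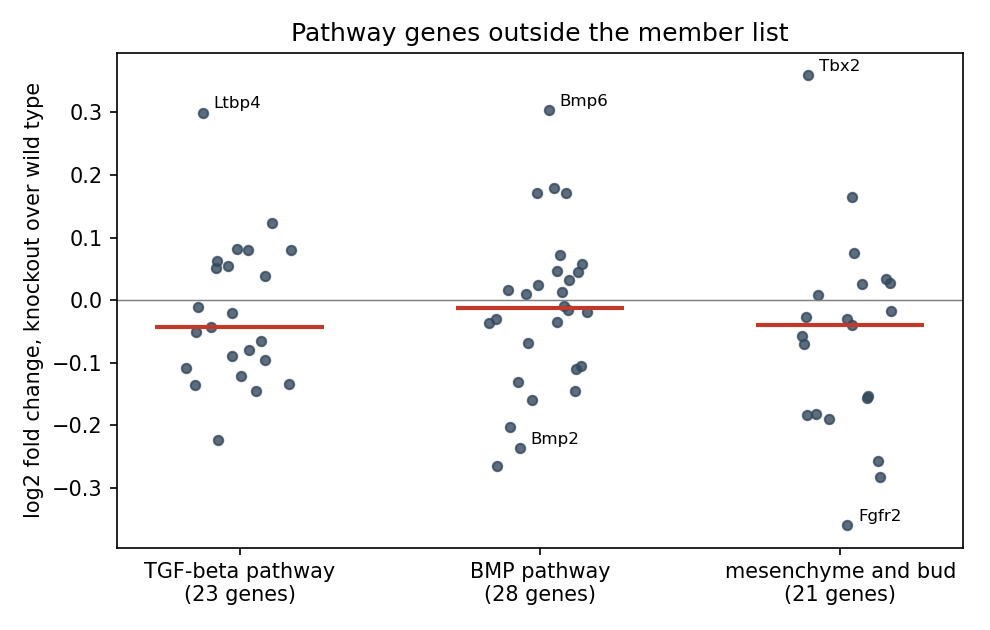
Log2 fold change, knockout over wild type (y axis), of the genes of each of 3 pathway lists by their brightest probe set (points, spread sideways for legibility), with the list median as a red bar. Named genes had an unadjusted p under 0.05, no gene passed after adjustment, and the medians lie between -0.044 and -0.013.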

How the data were processed

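Per the labels, 200 ng of total RNA of whole inguinal gland per array was labelled with biotin by the 3′ IVT Express method. The deposited values are log2 expression per probe set. The authors made them with RMA (affy package), as the submitters' processing notes record, and versions are not given in the notes used here. RMA removes a change shared by most genes and compresses differences of dim genes.

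The 104 control probe sets were left out. Of the rest, 28898 had 1 symbol, 551 several and 15588 none listed. Gene IDs matched RefSeq (GRCm38.p6) for 99.3%, and 0 symbols changed. Each of 45037 probe sets was tested, knockout against wild type, with limma 3.58.1 (lmFit, eBayes; R 4.3.3). Tests were two-sided without covariates, with 2 residual and 3.43 prior degrees of freedom, and the Benjamini-Hochberg adjustment ran over all of them. The number of arrays limits the precision: the median standard error was 0.081. The steps were tested on simulated data.

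Members, lists and tests were chosen with earlier results of these data known. Named from each of 3 pathway lists were up to 4 genes of smallest p in each direction, and the 3 genes nearest in pattern to the member gene of widest range. Alternatives were other normalizations, variance models, probe set choices, a block by replicate number, and each array left out. Ctgf and Ccn2, both listed, are the same gene and were counted once.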

Additional observations from a re-analysis of the deposited data

How the results depend on the processing

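No member probe set passed an adjusted p of 0.05 in limma under any of the 13 alternatives, and no gene of the 3 pathway lists did; at an unadjusted p under 0.05 the members counted 0 to 3. Over all features the count of 2 was 5 with quantile normalization, 5 with median centring, 5 with the brighter probe sets only, and 5 with an intensity trend or robust variances. It was 1 with the brightest probe set of each gene and 0 with probe sets averaged within genes. With an array left out it ran from 0 to 5, the highest without wild type 1. A genotype with a lone array is then assumed to vary like the other. A block by replicate number left 0 calls over all probe sets. Same-numbered arrays deviated in opposite directions (correlation -0.295 over 45037 probe sets, a hint from the data, not the design), and a crossed pairing, chosen after seeing the data, also called 0. At an unadjusted p under 0.05 the block gave 3131 probe sets and the crossed pairing 2558, against 2994 without either. Tgfb1, Tgfb2 and the 3 probe sets of Tbx3 kept their sign under every alternative that could be run on them, and each of the other 10 member probe sets changed sign in at least 1. Probe set 1448029_PM_at of Tbx3 ran from -0.30 to -0.27, with adjusted p of 0.553 to 1.00 by limma. Averaged within the gene, Tbx3 had -0.17. The dimmer member probe sets could not be tested among the brighter probe sets only.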
